A study of Mus musculus with 8 samples.

Results

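The genes described here were 10 genes of the contractile and actin-binding program that serum response factor (SRF) controls. They were taken by symbol from a table of 23467 genes, and all 10 were found and passed the filter on low levels (a mean of at least 1 RPKM, reads scaled by transcript length and library size). They were split by role into 4 smooth-muscle-restricted genes (*Acta2*, *Actg2*, *Tagln* and *Cnn1*), 3 contractile genes of wider use (*Myl9*, *Tpm1* and *Tpm2*), 2 general actin-binding genes (*Tagln2* and *Cnn2*) and the factor itself (*Srf*). RNA sequencing was done on 8 libraries of mouse cells from E14.5 livers, all on a mixed B6;129 background. The control libraries carry the label wild type, and the L1L2_Alb libraries carry Lats1-/-, Lats2f/fl and Alb-cre. Cells were hepatoblasts kept on collagen (iHB), hepatocyte-like cells after 12.5 ng/ml oncostatin M for 5 days (iHP) or biliary epithelial cells after 14 days on Matrigel (iBEC). There was 1 control library in each stage, with 1 L1L2_Alb library in iHB and 2 in each of iHP and iBEC.

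SRF is a DNA-binding protein that sits at a short A- and T-rich element, the CArG box, near the start of actin-cytoskeleton and smooth muscle genes. It needs partners. Myocardin (*Myocd*) and the myocardin-related factors (*Mkl1* and *Mkl2*, the latter pair released when actin monomers are used up) lead it to contractile genes, whereas the ternary complex factors *Elk1*, *Elk3* and *Elk4* lead it to immediate early genes such as *Fos* and *Egr1*. LATS1 and LATS2 are the kinases that restrain YAP and TAZ, which act through TEAD factors, and TEAD factors bind the element CATTCC, also found near many actin genes. In the liver, strong expression of *Acta2* and *Tagln* is best known from activated stellate cells, portal fibroblasts and vascular smooth muscle rather than from hepatocytes. The livers were digested and plated after lysis of red cells, and no sorting step is described in the methods, so other liver cells could be in the cultures. Albumin-Cre acts in liver epithelial cells, and a mesenchymal cell in the culture would keep *Lats2* while still lacking *Lats1*.

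Promoter sequences of the members are shown to place these elements. A promoter of 300 bases, from 250 before to 50 after the start site, was found in RefSeq (GRCm38.p6) for 8 of the 10 genes, all but *Actg2* and *Tagln*. The CArG box was searched only in its exact form, CCWWWWWWGG, where W is A or T. This form lay in 3 of the 8 (*Myl9*, *Cnn2* and *Srf*), and 1.81% of 27025 genes had one in a promoter of the same length. CATTCC, read on both strands, lay in 3 of the 8 (*Acta2*, *Tpm1* and *Tagln2*), against 16.6% of genes. The search covered both strands, the matches did not overlap, and a match here is a description of letters and not of binding. The 3 promoters with a CArG box (in capitals) and that of *Acta2* with its CATTCC on the reverse strand (in capitals) are given 5′ to 3′ on the strand of the gene. The position of *Cnn2* is chr10:79988350-79988649 (+), of *Myl9* chr2:156775214-156775513 (+), of *Srf* chr17:46556113-46556412 (-) and of *Acta2* chr19:34255324-34255623 (-).
Cnn2: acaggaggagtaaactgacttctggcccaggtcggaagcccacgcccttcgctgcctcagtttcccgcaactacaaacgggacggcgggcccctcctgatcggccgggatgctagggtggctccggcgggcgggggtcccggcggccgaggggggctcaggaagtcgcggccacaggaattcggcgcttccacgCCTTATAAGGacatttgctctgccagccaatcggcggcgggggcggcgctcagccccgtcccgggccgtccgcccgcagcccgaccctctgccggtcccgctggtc
Myl9: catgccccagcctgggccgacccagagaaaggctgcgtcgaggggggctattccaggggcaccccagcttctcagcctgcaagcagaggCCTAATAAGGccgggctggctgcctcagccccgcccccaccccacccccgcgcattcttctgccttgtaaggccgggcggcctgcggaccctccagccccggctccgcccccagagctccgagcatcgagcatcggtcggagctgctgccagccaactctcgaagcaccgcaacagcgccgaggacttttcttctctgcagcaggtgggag
Srf: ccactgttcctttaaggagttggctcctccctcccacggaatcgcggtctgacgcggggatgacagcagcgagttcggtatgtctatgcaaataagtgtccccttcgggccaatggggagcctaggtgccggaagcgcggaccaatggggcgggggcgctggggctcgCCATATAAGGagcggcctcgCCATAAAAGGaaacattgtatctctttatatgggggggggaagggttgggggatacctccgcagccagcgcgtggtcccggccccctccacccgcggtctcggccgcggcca
Acta2: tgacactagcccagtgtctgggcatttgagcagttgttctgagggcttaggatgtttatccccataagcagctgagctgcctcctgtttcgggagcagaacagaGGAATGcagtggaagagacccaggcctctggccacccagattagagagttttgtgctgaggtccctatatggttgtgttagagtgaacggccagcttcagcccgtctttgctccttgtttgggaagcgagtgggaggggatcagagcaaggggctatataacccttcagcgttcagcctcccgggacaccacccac
The CArG box of *Cnn2* began 56 bases before the start site and that of *Myl9* began 161 bases before it. *Srf* held 2 CArG boxes, which began 82 and 62 bases before its start, and CATTCC of *Acta2* began 146 bases before its start. The exact element was thus seen in the general actin-binding gene *Cnn2*, in the contractile gene *Myl9* and in *Srf*. It was not in the windows of the 5 other genes, but forms with another letter in the core were not searched. The *Acta2* window above holds such forms, ccctatatgg and ccttgtttgg, so a lack of CArG boxes in these genes is not shown.

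The libraries held between 18436865 and 33229075 reads, so that counting error was small for these genes, with 167 reads of *Cnn1* in L1L2_Alb iBEC replicate 2 as the lowest count among the 8 members whose reads could be recovered (all but *Tpm1* and *Tpm2*). Of the genes targeted in the mice, *Lats1* was below the control of its stage in 1 of 5 libraries labelled L1L2_Alb and *Lats2* in 0 of 5. *Lats1* was at 10.6 RPKM in control iHB against 13.9, at 11.2 in control iHP against 22.7 and 7.12, and at 5.38 in control iBEC against 9.69 and 9.91. *Lats2* was at 9.23 in control iHB against 19.7, at 10.1 in control iHP against 17.7 and 27.6, and at 6.90 in control iBEC against 10.9 and 12.4. *Lats2* was called higher (log2 fold change 0.90, SE 0.20, adjusted p = 0.0312 from limma). The values cover the whole gene, the deleted part is not stated in the sources used here, and reads from outside it would still count, so this check tells nothing about the deletion, and an L1L2_Alb library means below a library that carries that label. Of 5 hepatoblast and hepatocyte markers, 3 were called lower in these libraries (*Alb*, *Ttr* and *Hnf4a*, with log2 fold changes of -1.71, -1.95 and -1.33). Of 5 biliary markers, the keratins *Krt7* and *Krt19* were called higher (2.17 and 1.31) and *Spp1* lower (-1.50), and the part of these differences in those of the members was not tested.

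The question asked first was whether the smooth-muscle-restricted genes and the general actin genes differ between L1L2_Alb and control cells. *Cnn2* rose in L1L2_Alb cells, and it was the 1 gene of the 10 that passed the test over the 3 stages. *Acta2*, *Actg2* and *Tagln* were lower in L1L2_Alb libraries of iHB and iHP, and *Cnn1* in those of iHP, but with the iBEC libraries on both sides of their control none of the 4 passed. *Acta2*, the actin of smooth muscle and of activated stellate cells, was at 712 RPKM in control iHB against 385 in L1L2_Alb iHB. It was at 439 RPKM in control iHP against 76.2 and 154 in the L1L2_Alb iHP libraries. In iBEC the control was at 101 RPKM, between the L1L2_Alb libraries at 133 and 65.5. The L1L2_Alb values were thus below the control in iHB and in iHP and on either side of it in iBEC. In a limma fit of log2(RPKM + 1) that took stage and genotype as terms, *Acta2* had a log2 fold change of -1.01 (SE 0.41, 95% confidence interval -1.96 to -0.07, unadjusted p = 0.0382 and adjusted p = 0.162 from limma), lower in 4 of 5 L1L2_Alb libraries, and did not pass the threshold of an adjusted p of 0.05.

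*Actg2*, the actin of visceral smooth muscle, followed the same order of libraries. It was at 333 RPKM in control iHB against 219, at 194 in control iHP against 32.8 and 66.8, and at 48.1 in control iBEC against 75.5 and 29.7. The log2 fold change was -0.91 (SE 0.45, adjusted p = 0.253 from limma, lower in 4 of 5). Within a library the ratio of *Actg2* to *Acta2* stayed between 0.431 and 0.571 while *Acta2* itself ranged from 65.5 to 712 RPKM. No window of 50 bases in *Acta2* matched *Actg2* with 2 mismatches or fewer, nor did one of *Actg2* match *Acta2*, so that reads of this length would tell the pair apart. At most 3.97% of such windows of a member matched a paralog among its family (*Actg2* against *Actc1*, which was at 0.12 RPKM or less in every library).

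*Tagln*, which codes for transgelin (SM22), an actin-bundling protein of smooth muscle, was at 799 RPKM in control iHB against 375, and at 488 in control iHP against 90.5 and 268. In iBEC it was at 158 RPKM in the control against 258 and 136. The log2 fold change was -0.80 (SE 0.46, adjusted p = 0.320 from limma, lower in 4 of 5). The L1L2_Alb iHP libraries were both lower than the control but differed from each other by 2.96-fold.

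*Cnn1*, a calponin that binds actin and is a late marker of smooth muscle differentiation, was the least abundant of these 4 genes. It was at 50.7 RPKM in control iHB against 52.1, at 29.1 in control iHP against 7.78 and 12, and at 4.29 in control iBEC against 6.79 and 3.53. In iHB the values lay side by side, and in iHP both L1L2_Alb libraries were below the control. The log2 fold change was -0.47 (SE 0.36, adjusted p = 0.457 from limma, lower in 3 of 5), and leaving out the iHP stage turned it to 0.11.

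Among the contractile genes of wider use, *Myl9*, the regulatory light chain of smooth muscle and non-muscle myosin, resembled the smooth-muscle-restricted genes. It was at 174 RPKM in control iHB against 129, at 107 in control iHP against 19.8 and 32.9, and at 21.5 in control iBEC against 55.5 and 18.6. Its log2 fold change was -0.65 (SE 0.51, adjusted p = 0.482 from limma, lower in 4 of 5), and without the iHP stage it was 0.14. The tropomyosins, which wind along actin filaments and exist in muscle and non-muscle isoforms, had differences nearer 0. *Tpm1* was at 824 RPKM in control iHB against 760, at 473 in control iHP against 464 and 631, and at 201 in control iBEC against 238 and 248. It had a log2 fold change of 0.14 (SE 0.19, adjusted p = 0.703 from limma, higher in 3 of 5). *Tpm2* was at 146 RPKM in control iHB against 103, at 118 in control iHP against 64.9 and 105, and at 45.2 in control iBEC against 94.3 and 65.9. Its log2 fold change was -0.03 (SE 0.30, adjusted p = 0.960 from limma), with the 3 L1L2_Alb libraries of iHB and iHP below their control and the 2 of iBEC above it. Gene-level values sum the isoforms, so a switch between muscle and non-muscle tropomyosins would not be seen.

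**Figure D1:**
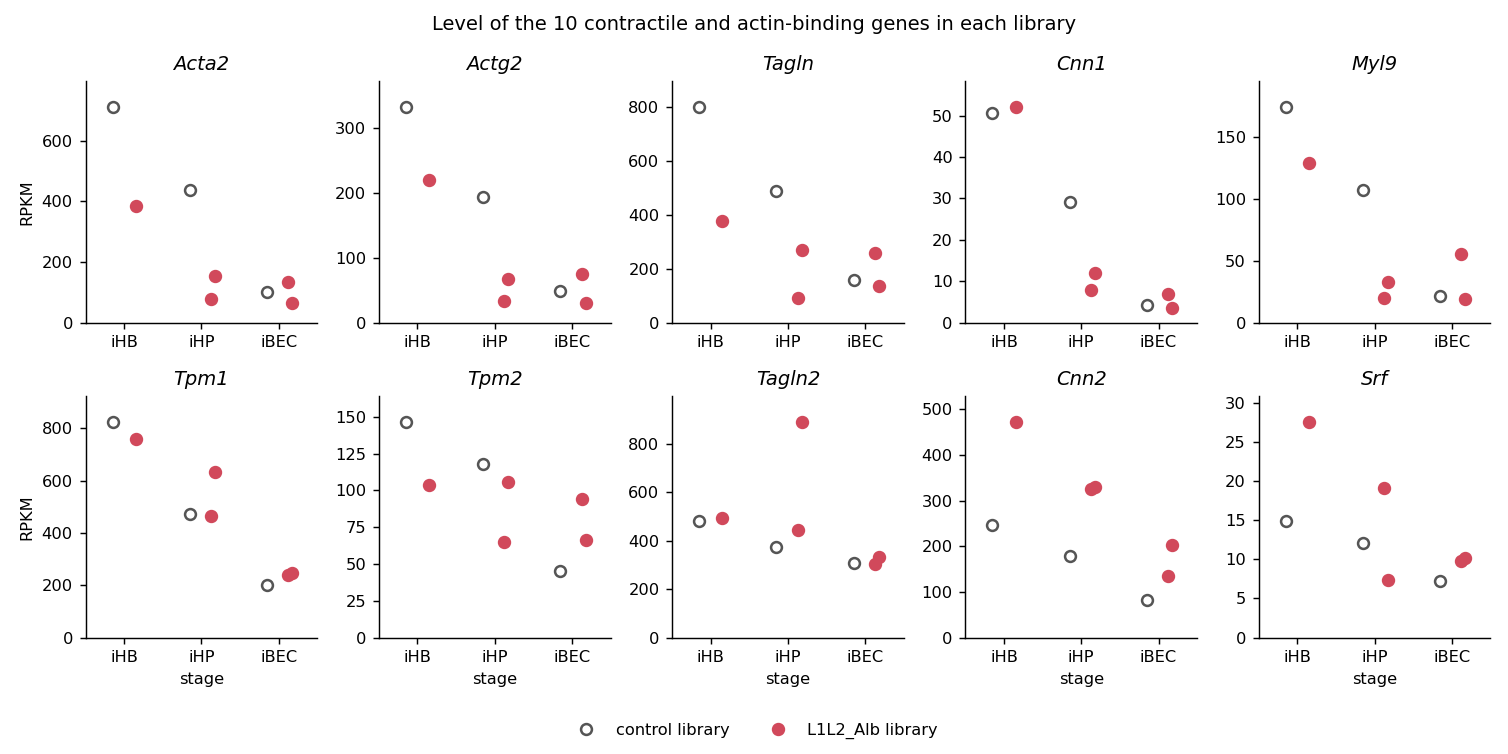
Level in RPKM (vertical axis, linear and from 0, a scale of its own in each panel) of each of the 10 genes in the 8 libraries, by stage on the horizontal axis. Open points are control libraries and filled points L1L2_Alb libraries. In iHP both L1L2_Alb points of *Acta2* (76.2 and 154) lie below the control (439), while both points of *Cnn2* (327 and 331) lie above the control (179).

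The general actin-binding genes had positive log2 fold changes. *Cnn2*, the calponin of non-muscle and epithelial cells, was at 246 RPKM in control iHB against 473 in L1L2_Alb iHB. It was at 179 in control iHP against 327 and 331, and at 83.2 in control iBEC against 135 and 202. All 5 L1L2_Alb libraries were above the control of their stage, and this was so for 22.9% of the 13421 genes tested. The log2 fold change was 0.93 (SE 0.19, 95% confidence interval 0.51 to 1.35, adjusted p = 0.0207 from limma), and *Cnn2* was the 1 member of the 10 that passed. The call rested on few libraries: the fold change stayed between 0.81 and 1.01 over the alternatives, but the adjusted p was between 0.0590 and 0.142 without L1L2_Alb iHB, without any 1 of the 3 control libraries or without any 1 of the stages. *Tagln2*, the transgelin of non-muscle cells, was at 481 RPKM in control iHB against 495, at 372 in control iHP against 444 and 890, and at 309 in control iBEC against 301 and 334. Its log2 fold change was 0.30 (SE 0.27, adjusted p = 0.545 from limma, higher in 4 of 5), with most of it from L1L2_Alb iHP replicate 2. Without that library it was 0.10.

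*Srf* itself was at 14.9 RPKM in control iHB against 27.5, at 12.1 in control iHP against 19.1 and 7.34, and at 7.20 in control iBEC against 9.84 and 10.1. Thus 4 of 5 L1L2_Alb libraries were above their control, and replicate 2 of iHP was below it. The log2 fold change was 0.38 (SE 0.30, 95% confidence interval -0.32 to 1.07, adjusted p = 0.489 from limma). Without L1L2_Alb iHP replicate 2 it was 0.61.

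Over all genes tested, 9.57% were called in this comparison, 6.2% higher and 3.37% lower, with a median log2 fold change of 0.06. Of the 10 members, 1 was called higher and 0 lower, while 1 more (*Acta2*) had an unadjusted p under 0.05. The share called among the members was thus near that of all genes. The median log2 fold change was -0.85 over the 4 smooth-muscle-restricted genes, -0.03 over the 3 contractile genes of wider use and 0.61 over the 2 general actin-binding genes.

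**Figure D2:**
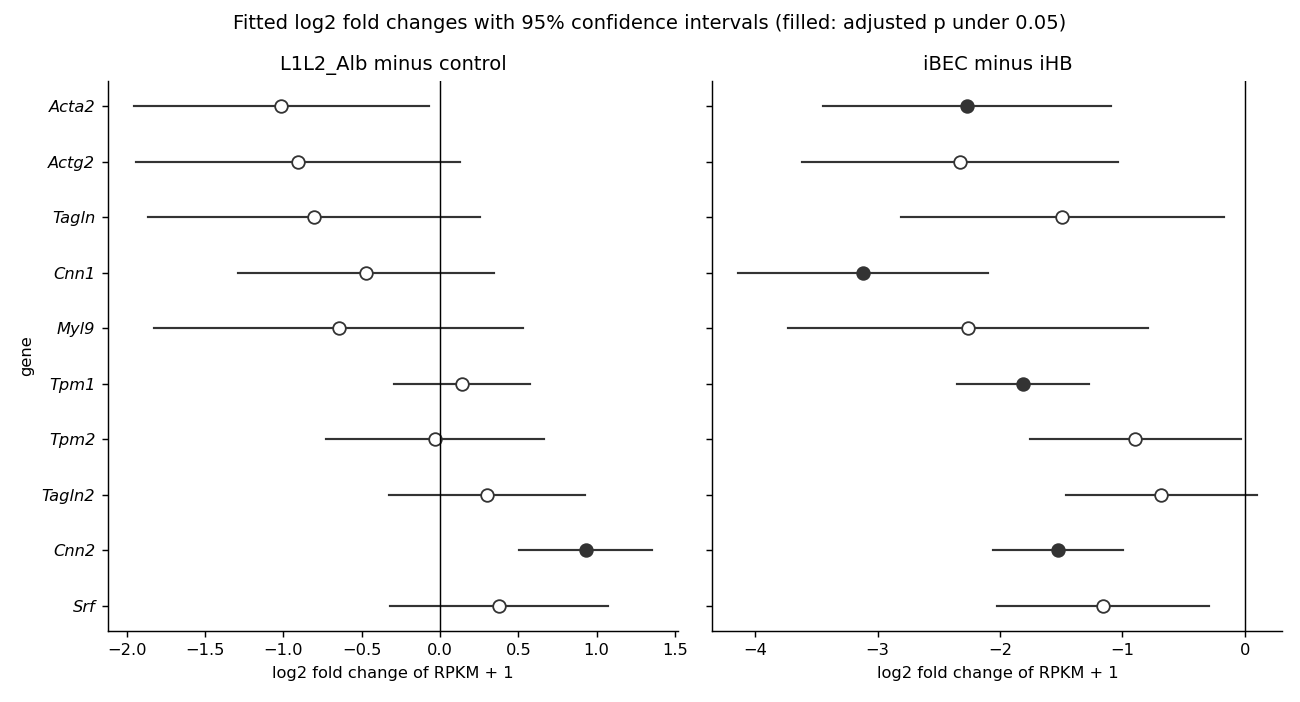
Fitted log2 fold change of RPKM + 1 of each gene (horizontal axis, log2 scale) with its 95% confidence interval, not adjusted over genes, between L1L2_Alb and control (left) and between iBEC and iHB (right). Filled points had an adjusted p under 0.05: *Cnn2* on the left, and *Acta2*, *Cnn1*, *Tpm1* and *Cnn2* on the right.

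Single stages have 1 control library each and were compared without a test. In iHP, 4 of the 10 genes (*Acta2*, *Actg2*, *Cnn1* and *Myl9*) were at least 2-fold lower on the log2(RPKM + 1) scale in both L1L2_Alb libraries, as were 8.26% of the genes tested, and 0 were at least 2-fold higher in both, against 4.64%. In iHB, 1 of the 10 (*Tagln*) was at least 2-fold lower, against 8.99% of genes, and 0 were higher, against 5.6%. In iBEC, 0 were at least 2-fold lower in both libraries and 0 were higher, against 1.62% and 4.19% of genes. The size of the difference in iHP was -2.51 and -1.51 for *Acta2*, -2.52 and -1.52 for *Actg2*, -2.42 and -0.86 for *Tagln*, -1.78 and -1.22 for *Cnn1* and -2.38 and -1.67 for *Myl9* (log2 differences in replicates 1 and 2). Replicate 1 had the larger difference for each of these 5 genes.

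In iBEC the L1L2_Alb libraries disagreed with each other. Replicate 1 was above the control for *Acta2*, *Actg2*, *Tagln*, *Cnn1* and *Myl9*, by between 0.39 and 1.33 on the log2 scale. Replicate 2 was below the control for the same 5 genes, with log2 differences between -0.68 and -0.19. For these genes the replicates differed from each other by between 1.90- and 2.98-fold, which was more than their mean differed from the control. Without the iBEC stage, a setting chosen after seeing the data, the log2 fold changes were -1.53 for *Acta2* (adjusted p = 0.0577 from limma), -1.41 for *Actg2* (0.0821), -1.40 for *Tagln* (0.108), -1.34 for *Myl9* (0.0836) and -0.84 for *Cnn1* (0.232), with the adjusted p in brackets, and none passed. A test of whether the genotype effect differed between stages gave 0 calls among the 10 genes and 0 (0%) over all genes, with 0 of the 10 and 733 of all genes at an unadjusted p under 0.05. The lowest unadjusted p among the members was 0.0603, for *Myl9*. The fit had 2 residual degrees of freedom, and an equal effect in the 3 stages is not shown by it.

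**Figure D3:**
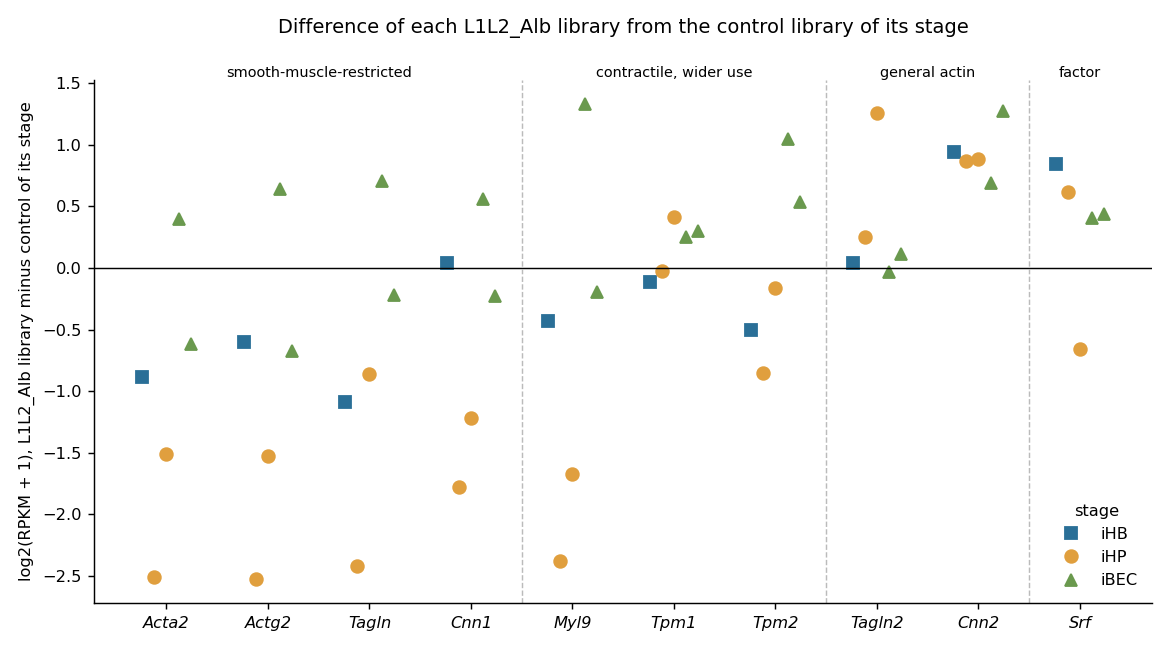
Difference in log2(RPKM + 1) between each L1L2_Alb library and the control library of its stage (vertical axis) for the 10 genes, grouped by role. Squares are iHB, circles iHP and triangles iBEC. The iHP circles of *Acta2*, *Actg2*, *Tagln*, *Cnn1* and *Myl9* lie between -2.52 and -0.86, the triangles lie on both sides of 0 for the same genes, and all 5 points of *Cnn2* lie above 0.

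The mesenchymal content of the cultures may differ between libraries, and in bulk RNA fewer cells of a type and less RNA per cell cannot be told apart. A list of 13 mesenchymal markers summed to 4158 RPKM in control iHB against 1290, to 2530.5 in control iHP against 671 and 1055, and to 2600 in control iBEC against 3686 and 1657. The same L1L2_Alb libraries that were low in *Acta2*, those of iHB and iHP, were thus low in this sum. In iBEC replicate 1 was above the control and replicate 2 below it for the sum as for *Acta2*. Most of the sum was *Col1a1*, *Col1a2* and *Col3a1*, at 1467, 1263 and 991 RPKM in control iHB. Of the 10 markers that passed the filter, 10 were below the control in L1L2_Alb iHB and 9 and 10 in iHP replicates 1 and 2. In iBEC, 10 were above it in replicate 1, while 7 were below and 3 above it in replicate 2. All 10 had a negative log2 fold change in the fit (median -1.08), and 0 were called. Their part in the differences of the members was not tested.

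*Col1a1*, the alpha chain of type I collagen and the marker with the highest level, was at 1467 RPKM in control iHB against 606, at 1017 in control iHP against 288 and 483, and at 1100 in control iBEC against 1130 and 606. Its log2 fold change was -1.02 (SE 0.32, adjusted p = 0.0818 from limma). That of *Col1a2* was -1.18 (adjusted p = 0.0998 from limma), that of *Col3a1*, a collagen of fibroblasts, -1.14 (adjusted p = 0.154 from limma) and that of *Dcn*, the proteoglycan decorin, -1.98 (adjusted p = 0.147 from limma). Each was as large as or larger than that of *Acta2*.

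Set against *Col1a1* in the same library, *Acta2* separated the stages more than the genotypes. The ratio of *Acta2* to *Col1a1* was 0.485 in control iHB against 0.634, 0.432 in control iHP against 0.264 and 0.319, and 0.0918 in control iBEC against 0.118 and 0.108. The ratio of *Tagln* to *Col1a1* was 0.544 in control iHB against 0.619, 0.479 in control iHP against 0.314 and 0.556, and 0.143 in control iBEC against 0.228 and 0.224. Per unit of *Col1a1*, the L1L2_Alb libraries were thus above the control in iHB and iBEC for both genes, and below it in iHP for *Acta2* in both libraries and for *Tagln* in 1 of 2. Both ratios were lower in all 3 iBEC libraries than in the 5 others. This reading depended on the marker. With *Col1a2* the ratio of *Acta2* was likewise lower in iHP, at 0.608 in the control against 0.472 and 0.552. With *Postn*, another mesenchymal marker picked after its values were seen, it was higher there, at 5.79 against 27.7 and 15.8. The *Postn* ratio also did not set control iBEC (4.38) apart from control iHB (3.50).

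The markers of 7 other cell classes placed the members further. Of 7 vascular smooth muscle and pericyte markers, 5 passed the filter, with a median log2 fold change of -0.42 and 0 called. Their sum was 151 RPKM in control iHB against 85.0, 93.5 in control iHP against 17.9 and 30.5, and 29.1 in control iBEC against 86.2 and 35.1, low in the same libraries as *Acta2* in iHB and iHP. *Des*, shared by stellate and muscle cells, was the most abundant of them, at 68.7 RPKM in control iHB and 11.8 in L1L2_Alb iHP replicate 1. The stellate markers *Reln* and *Ngfr* were under 1 RPKM in every library, and *Lrat* was at most 1.46 RPKM outside control iBEC, where it was at 4.02 RPKM. Of 4 skeletal muscle markers, *Myog* was at 0 in every library, *Myod1* and *Ckm* were under 1 RPKM, and *Mylpf* reached 3.94 RPKM. The actin of heart muscle, *Actc1*, was likewise at 0.12 RPKM or less. The 4 endothelial markers summed to between 1.30 and 5.17 RPKM and had 0 calls. Of these *Pecam1* was at 4.01 RPKM in control iHB against 0.867, at 4.18 in control iHP against 0.339 and 0.244, and at 0.574 in control iBEC against 0.177 and 0.698, so it was low in the same libraries of iHB and iHP as *Acta2*. *Kdr*, the other of the 2 that passed the filter, went the other way and was higher in 5 of 5. It was at 0.612 RPKM in control iHB against 2.15, and at 0.334 in control iHP against 1.42 and 1.42. Its log2 fold change was 0.97 (adjusted p = 0.0542 from limma). The 4 leukocyte markers had 0 calls and summed to 424 RPKM in control iHB against 455, to 258 in control iHP against 158 and 203, and to 245 in control iBEC against 403 and 422. In iHP they were thus also low where *Acta2* was low, with median log2 differences of -0.94 and -0.96. *Ptprc*, the pan-leukocyte marker CD45, was at 14.9 RPKM in control iHP against 4.00 and 3.59, and *Itgam*, a myeloid integrin, at 70.9 against 25.4 and 27.5. The more abundant *Csf1r* differed less, at 79.1 against 58.7 and 52.4. *Cd68*, at 93.3 against 69.5 and 120, lay on both sides of its control. The part of either class in the differences of the members was not tested. Of 4 mesothelial markers, all had a positive log2 fold change and 2 were called. *Msln* rose (log2 fold change 3.61, adjusted p = 0.00093 from limma), as did *Upk1b* (3.01, adjusted p = 0.0119). *Wt1* (0.93, adjusted p = 0.0594 from limma) and *Upk3b* (0.53, adjusted p = 0.528) did not pass. *Upk3b* was lower in iHP, at 2.97 RPKM in the control against 1.65 and 0.691. The sum of the 4 was between 111 and 272 RPKM in the controls and between 1064 and 3613 RPKM in the L1L2_Alb libraries. Most of it was *Msln*, with 1032 of 1064 RPKM in L1L2_Alb iBEC replicate 1. The part of these markers in the differences of *Cnn2* and *Tagln2* was not tested.

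**Figure D4:**
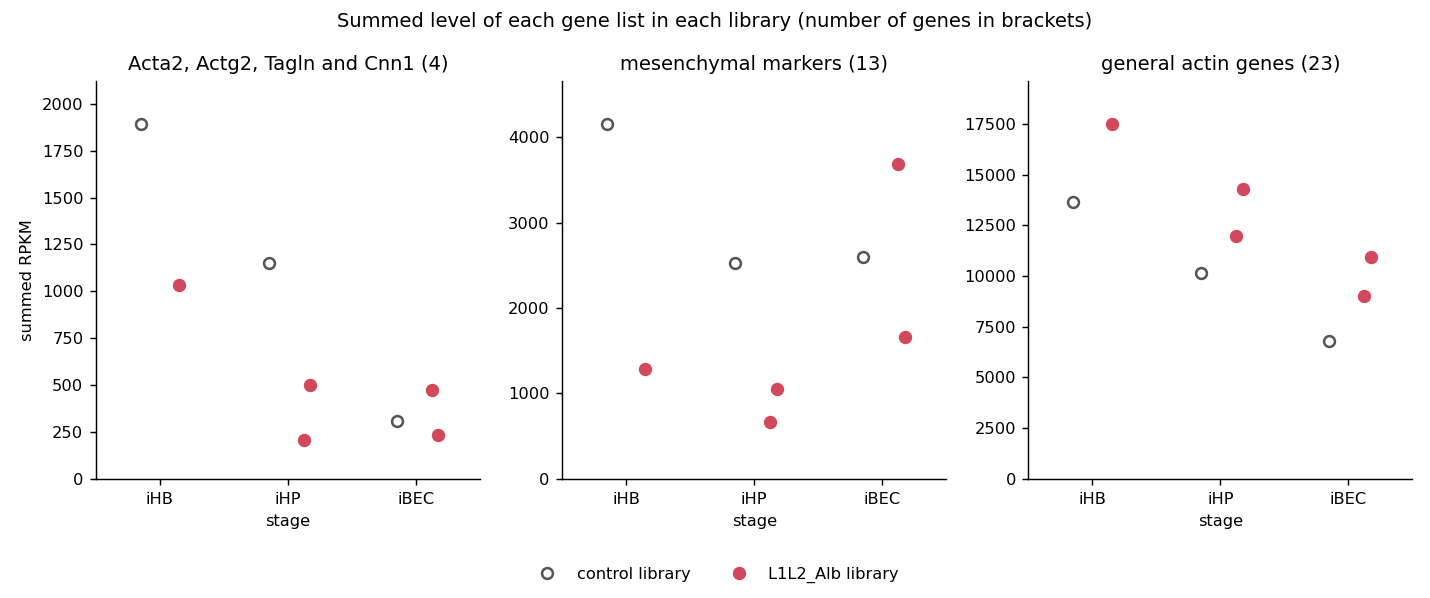
Summed RPKM (vertical axes, linear and from 0) in each library of the 4 smooth-muscle-restricted genes, of 13 mesenchymal markers and of 23 general actin genes, by stage, with open points for control and filled points for L1L2_Alb libraries. The first and second panels place the libraries alike within iHB, iHP and iBEC, whereas the L1L2_Alb libraries lie above the control in every stage in the third.

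The smooth muscle program beyond the members gave a similar picture in iHB and iHP, and in part a different one in iBEC. Of 13 further genes, 11 passed the filter, 9 of them with a negative log2 fold change (median -0.31), and 1 was called, *Myocd*, which rose. This share was near the 9.57% called over all genes. The most abundant of them were *Cald1*, *Csrp1*, *Des* and *Smtn*, and their log2 fold changes were 0.14, -0.27, -0.42 and -0.58, none of which passed. In L1L2_Alb iBEC replicate 2, 8 of the 11 genes were above the control and 3 below it (median log2 difference 0.09). The 4 smooth-muscle-restricted members were all below the control in that library (median -0.42). The genes whose levels over the 8 libraries were most like the mean of the 4 smooth-muscle-restricted genes were *Myh11*, the myosin heavy chain of smooth muscle (Pearson r = 0.98), *Lmod1*, an actin nucleator of smooth muscle (0.97), *Csrp2*, a LIM protein of smooth muscle (0.97), *Slc1a6*, a glutamate transporter (0.96), and *Wdr83* (0.95). Among the members, r with that mean was 0.98 for *Myl9*, 0.85 for *Tpm2* and 0.74 for *Tpm1*, but 0.32 for *Cnn2* and 0.27 for *Tagln2*, and 0.42 for *Srf*. These are descriptions over 8 libraries that share 3 stages. *Myh11* was at 24.4 RPKM in control iHB against 16.0, at 9.46 in control iHP against 0.701 and 2.27, and 0.439 in control iBEC against 1.30 and 0.504. Its log2 fold change was -0.81 (SE 0.46, adjusted p = 0.322 from limma).

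The general actin list was on the side of *Cnn2*. Of 23 genes of the actin cytoskeleton outside the members, all passed the filter, 17 had a positive and 6 a negative log2 fold change (median 0.33, against 0.06 over all genes), and 4 rose while 0 fell. Over all genes 6.2% were called higher and 3.37% lower. The 4 were *Ezr*, which links actin to the membrane (log2 fold change 1.66, adjusted p = 0.00626 from limma), the non-muscle myosin light chains *Myl12a* (1.29, adjusted p = 0.0114) and *Myl12b* (1.01, adjusted p = 0.0176), and the crosslinker *Actn1* (1.14, adjusted p = 0.0406). Each was higher in 5 of 5 L1L2_Alb libraries, and without the iHP stage the adjusted p was 0.0852 or more for all 4. The call of *Actn1* was the least stable of these, since it passed in 5 of 16 alternative settings against 14 of 16 for *Ezr*. Its adjusted p was 0.0562 with upper-quartile scaling, 0.0931 with no filter on low values and 0.0638 or more without any 1 library other than L1L2_Alb iBEC replicate 1. *Myl12a* and *Myl12b* did not pass without L1L2_Alb iHB, control iHB or control iHP (adjusted p between 0.0641 and 0.110 from limma), nor did *Myl12b* without control iBEC (0.0531). *Myl12a* was at 361 RPKM in control iHB against 1078, at 298 in control iHP against 634 and 615, and at 157 in control iBEC against 305 and 504. *Myl9* and *Myl12a* code for light chains of the same kind, and the ratio of *Myl12a* to *Myl9* was 2.07 in control iHB against 8.35, 2.78 in control iHP against 32.1 and 18.7, and 7.32 in control iBEC against 5.51 and 27.1. The share of the muscle-type chain was thus smaller in 4 of 5 L1L2_Alb libraries. The cytoplasmic actins, the most abundant with *Tmsb4x* and *Myl6*, did not pass: the value of *Actb* was 0.29 (adjusted p = 0.529 from limma) and that of *Actg1* 0.31 (adjusted p = 0.441 from limma).

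The smooth muscle and general forms of a family were also set against each other within each library, with no test. The ratio of *Cnn2* to *Cnn1* was 4.86 in control iHB against 9.07, 6.15 in control iHP against 42.0 and 27.7, and 19.4 in control iBEC against 19.8 and 57.3. The third calponin, *Cnn3*, an acidic calponin of non-muscle cells, rose (log2 fold change 1.15, adjusted p = 0.00665 from limma), from 163 RPKM in control iHB to 328, from 158 in control iHP to 351 and 425, and from 113 in control iBEC to 237 and 255. Its adjusted p was 0.0785 without control iHP. The ratio of *Tagln2* to *Tagln* was 0.602 in control iHB against 1.32, 0.764 in control iHP against 4.91 and 3.32, and 1.96 in control iBEC against 1.17 and 2.46. All 5 libraries were above the control for the calponin ratio and 4 of 5 for the transgelin ratio. In the calponin and transgelin family 2 of the 5 genes tested were called, both higher, in the actin family 0 of 5 and in the tropomyosin family 0 of 4. The 2 were *Cnn3* and the member *Cnn2* given above, and over all genes 9.57% were called.

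The partners of SRF differed among themselves. Of 7 cofactors, 6 had a positive log2 fold change (median 0.27) and 2 rose, against 6.2% of all genes called higher. *Myocd*, the coactivator that directs SRF to smooth muscle genes, was at 1.14 RPKM in control iHB against 8.43, at 0.559 in control iHP against 4.79 and 9.10, and at 0.295 in control iBEC against 2.51 and 3.07. All 5 L1L2_Alb libraries were above every control library, with a log2 fold change of 1.98 (SE 0.26, adjusted p = 0.00498 from limma), in the same libraries of iHB and iHP in which *Acta2* was low. Its levels were low throughout, and the adjusted p was 0.0537 without the iHP stage. *Fhl2*, a LIM protein that binds SRF and is itself an SRF target, was at 32.8 RPKM in control iHB against 153, at 30.0 in control iHP against 137 and 115, and at 11.7 in control iBEC against 41.6 and 54.7. The log2 fold change was 2.04 (SE 0.17, adjusted p = 0.00093 from limma), and it passed in all 16 alternative settings. The myocardin-related factors did not pass, at -0.13 on the log2 scale for *Mkl1* (adjusted p = 0.728 from limma) and 0.27 for *Mkl2* (adjusted p = 0.411 from limma). *Mkl1* was below its control in iHB and iHP, as *Acta2* was. It was at 24.8 RPKM in control iHB against 22.2, and at 19.1 in control iHP against 12.5 and 14.1. In iBEC it was above the control, at 14.2 RPKM against 16.4 and 18.0.

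**Figure D5:**
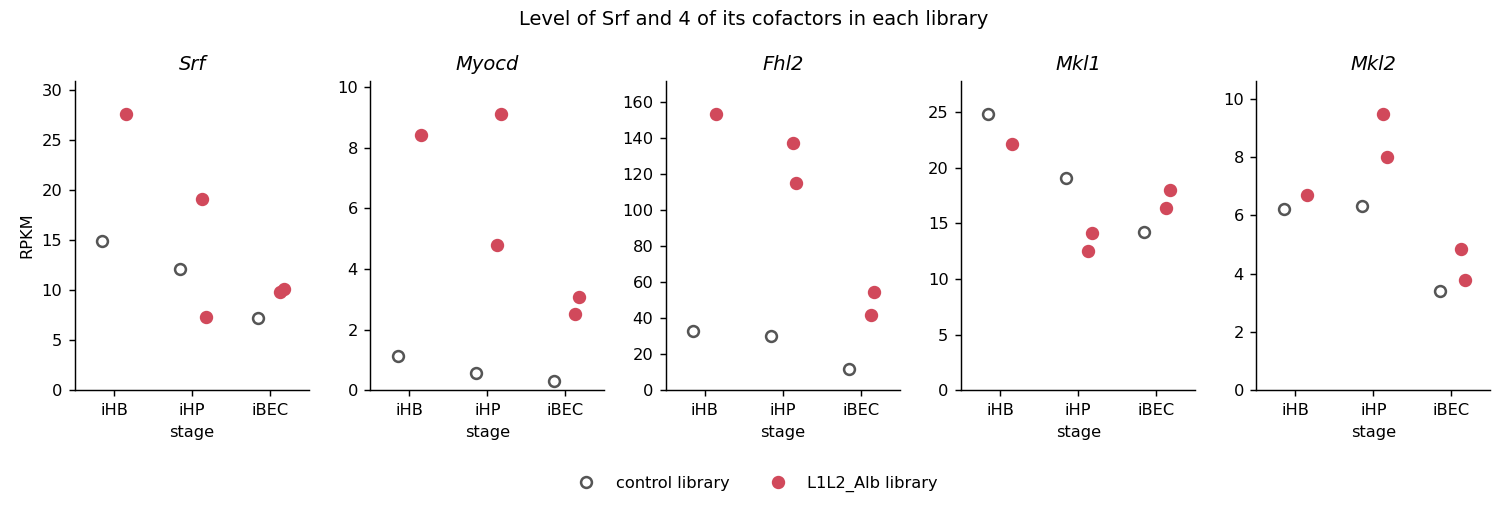
Level in RPKM (vertical axis, linear and from 0) of *Srf* and 4 cofactors in each library by stage, with open points for control and filled points for L1L2_Alb libraries. All filled points of *Myocd* (2.51 to 9.10) and *Fhl2* (41.6 to 153) lie above every open point of the same gene (0.295 to 1.14 and 11.7 to 32.8), which is not so for *Srf*, *Mkl1* or *Mkl2*.

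The immediate early genes, the other class of SRF targets, were mixed. Of 8 genes, 7 passed the filter, 4 with a positive log2 fold change and 3 with a negative one (median 0.10), and *Fos* alone was called. It was at 24.9 RPKM in control iHB against 97.6, at 26.2 in control iHP against 78.0 and 67.2, and at 48.3 in control iBEC against 94.5 and 103. It had a log2 fold change of 1.42 (SE 0.19, adjusted p = 0.00550 from limma). The adjusted p was 0.0502 without control iHP and 0.0752 without the iHP stage, so it did not pass in either. The value of *Egr1* was -0.82 (adjusted p = 0.260 from limma), that of *Junb* -0.13 (adjusted p = 0.678 from limma) and that of *Mcl1* 0.19 (adjusted p = 0.486 from limma). The genes whose levels over the 8 libraries were most like those of *Srf* were *Zbtb42* (r = 1.00), *Rhbdf1* (0.99), *Zfp64* (0.98), *Rnaseh1* (0.98) and *Spata2* (0.98), all without a call. In each of them, as in *Srf*, L1L2_Alb iHP replicate 2 was below the other iHP libraries.

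The stages were compared next, across both genotypes. Between iBEC and iHB 5.72% of genes were called, and 2.78% were called lower. All 10 members had a negative log2 fold change, against a median of -0.25 over all genes, and 4 fell: *Cnn1* by 3.12 (SE 0.45, adjusted p = 0.00660 from limma), *Acta2* by 2.27 (SE 0.51, adjusted p = 0.0410), *Tpm1* by 1.81 (SE 0.24, adjusted p = 0.00473) and *Cnn2* by 1.53 (SE 0.23, adjusted p = 0.00839) on the log2 scale. The median over the 10 was -1.67. For *Actg2* the value was -2.33 (adjusted p = 0.0520 from limma), for *Myl9* -2.26 (adjusted p = 0.0851 from limma) and for *Tagln* -1.49 (adjusted p = 0.163 from limma). For *Srf* it was -1.16 (adjusted p = 0.119 from limma), for *Tpm2* -0.89 (adjusted p = 0.191 from limma) and for *Tagln2* -0.68 (adjusted p = 0.248 from limma). Here smooth-muscle-restricted and general genes were on the same side: 2 of 4 of the first and 1 of 2 of the second were called lower, and of the 23 other general actin genes 6 were called lower and 0 higher. The markers of other cell classes were mixed. The mesenchymal markers had a median log2 fold change of 0.61 over 10 genes, 7 of them positive and 3 negative, with 1 called higher (*Pdgfra*) and 0 lower. The vascular smooth muscle and pericyte markers were on the side of the members, with a median of -1.59, 4 of 5 negative and *Myh11* called lower (-3.47, adjusted p = 0.0128 from limma). The leukocyte markers had a median of -0.89, with 3 of 4 negative and 0 called. Their part in the stage differences was not tested. iHB is the stage with 1 library of each genotype, and the call count among the members was 0 without L1L2_Alb iHB and 1 (*Cnn1*) without control iHB. The call of *Acta2* was lost in 6 of 13 alternative settings, also when genes of any level were kept (adjusted p = 0.0981 from limma), with upper-quartile scaling (0.0810), without control iBEC (0.136) and without L1L2_Alb iBEC replicate 2 (0.0963).

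Between iBEC and iHP 4.12% of genes were called, and 1.67% were called lower. Of the members, 2 fell: *Tpm1* by 1.18 (SE 0.21, adjusted p = 0.0238 from limma) and *Cnn2* by 1.03 (SE 0.20, adjusted p = 0.0346 from limma) on the log2 scale. The 8 others had log2 fold changes between -1.40 (*Cnn1*) and -0.37 (*Tagln*) and did not pass. These calls were lost on leaving out control iHB, control iHP, control iBEC, L1L2_Alb iHB or either L1L2_Alb iBEC library, each of which gave 0 members called. They were also lost when genes of any level were kept (adjusted p from limma of 0.0579 for *Tpm1* and 0.0687 for *Cnn2*). Within the L1L2_Alb libraries alone, 0 were called, with or without the replicate number as a block. Between iHP and iHB, 0 members and 0% of genes were called, with 5 of the 10 members and 1158 of all genes at an unadjusted p under 0.05. All 5 were lower in iHP, and 9 of the 10 members had a negative log2 fold change (median -0.95, against -0.15 over all genes). By the labels, iHP differs from iHB by oncostatin M and iBEC from iHB by Matrigel, while iBEC differs from iHP by both. Time in culture goes with these treatments, so their contributions cannot be told apart.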

How the data were processed

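RNA of 8 libraries (TruSeq, Illumina) was measured by RNA sequencing. The authors deposited 1 table with an RPKM value per gene and library, whose unit was inferred from the values and cannot be told from FPKM. The submitters' processing notes name Bowtie 0.12.2 and mm8. The counting method and annotation are not given in the sources used here. The table held 23471 entries, and 4 of repeated symbols were left out. Reads per library were recovered from short genes, where 1 read is the smallest shared step, and from these whole reads of single-transcript genes. No count model was run.

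The 13421 genes whose mean reached 1 RPKM were fitted on log2(RPKM + 1) in limma 3.58.1 in R 4.3.3 (eBayes with trend), with stage and genotype as terms (4 residual degrees of freedom). The difference of the genotype effect between stages was a moderated F test on 6 conditions. P-values are two-sided, adjusted over all genes tested by the Benjamini-Hochberg method, with a threshold of 0.05. Fold changes on this scale understate the change of low genes. The genotype fit was tested on simulated data first. It called 96% of the genes given a log2 change of 2 and 43% of those given a change of 1. A missing call between genotypes thus says little about a change of about 1 or less. Whether libraries are from separate embryos is not stated, so p-values measure the spread between libraries, which may be technical. In the fit on stage and genotype, this spread also holds any disagreement of the genotype effect between stages. Only the L1L2_Alb replicates of iHP and iBEC measure spread within a condition, with 2 residual degrees of freedom in the fit on 6 conditions. The labels give 5 days of oncostatin M.

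The 10 members and the 19 gene lists were chosen with earlier results of these data known. Of each list, genes were named when called between genotypes or among the 4 with the highest mean, and 5 genes were named by likeness of pattern. Promoters were from RefSeq (GRCm38.p6), a build other than that of the table, and no position was taken from the table. Alternatives were another pseudocount (0.1), upper-quartile scaling, no filter, a filter at 5 RPKM, no trend in eBayes and leaving out each library.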

Additional observations from a re-analysis of the deposited data

Results flagged for a closer look

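The genotype difference went opposite ways between stages for 3 members, with every library of a stage on the same side. With 1 L1L2_Alb library, iHB meets this rule by itself. The share of all genes that meet the rule was not counted, so the 3 are not set apart from other genes. Each difference below is on the log2(RPKM + 1) scale, with the control library of the stage subtracted and the mean taken where a stage had 2 L1L2_Alb libraries. For *Tpm2* the difference was -0.50 in iHB, -0.51 in iHP and 0.79 in iBEC, so that iBEC was 1.29 above iHB and 1.30 above iHP (unadjusted p = 0.127, adjusted p = 1.00 from limma for the genotype effect differing between stages). For *Cnn1* it was 0.04 in iHB and -1.50 in iHP, a gap of -1.54 (unadjusted p = 0.0698, adjusted p = 1.00 from limma). For *Tpm1* it was -0.12 in iHB and 0.27 in iBEC, a gap of 0.39 (unadjusted p = 0.828, adjusted p = 1.00 from limma). None of these passed, and in iHB *Cnn1* lay close to its control (52.1 against 50.7 RPKM).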

How the results depend on the processing

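The number of members called between genotypes was 1 (*Cnn2*) under 5 settings that changed the pseudocount, the scaling, the filter or the trend, and between 0 and 1 without each library in turn. Without the iHB, iHP or iBEC stage (settings chosen after seeing the data) it was 0, 0 and 0. The count between iBEC and iHB was 4, and between 0 and 6 without each library. The count between iBEC and iHP was 2, 0 with no filter on low values, and between 0 and 3 without each library. The counts between iHP and iHB and for an effect that differed between stages stayed at 0, and the second could not be fitted without a control library or L1L2_Alb iHB. Between iBEC and iHP within L1L2_Alb the count was 0 without and 0 with the replicate block. Labels give iHP and iBEC replicates 1 and 2 in L1L2_Alb, which share only a number (correlation of their deviations -0.0195 over 13234 genes, 2 pairs), and the block moved the calls over all genes from 473 to 906.

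Signs turned in values that had no call. Between genotypes, the range without each library was -0.84 to 0.11 for *Cnn1* and -1.34 to 0.14 for *Myl9*, with the positive values without control iHP, and -0.50 to 0.24 for *Tpm2*. Without the iHP stage they were 0.11, 0.14 and 0.24, and without the iHB stage *Tpm2* was at 0.14. Between iBEC and iHP within L1L2_Alb, *Actg2* was at 0.018, *Myl9* at 0.33 and *Tagln* at 0.26, with or without the replicate block. Without each library *Myl9* ranged from -1.18 to 0.18 and *Tagln* from -0.95 to 0.18, positive without control iHP or control iBEC. Between iHP and iHB, *Tagln2* ranged from -0.26 to 0.35, negative without L1L2_Alb iHB or L1L2_Alb iHP replicate 2. The causes were not tested. Over the named genes, 616 repeats kept their direction and side of the threshold, 67 lost a call, 8 gained one and 22 turned sign.

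With no filter, 686 genes were called between genotypes against 1284, 492 against 768 between iBEC and iHB and 211 against 553 between iBEC and iHP. With 1 control library a stage, the spread of controls was not measured within a stage, and leaving out a control leaves the genotype effect to the other stages. In the 7 fits that left out a stage, a control library or L1L2_Alb iHB, *Cnn2* did not pass.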

Other observations

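The smallest ratio of *Acta2* to the cytoplasmic actin *Actb* was 0.0487, in L1L2_Alb iHP replicate 1, and the largest was 0.404, in control iHB. The tropomyosins *Tpm3* and *Tpm4* had log2 fold changes of -0.04 (adjusted p = 0.917 from limma) and 0.44 (adjusted p = 0.191 from limma) between genotypes. The ratio of *Acta2* to *Postn*, a matrix protein of activated fibroblasts that was picked after its values were seen, was 3.5 in control iHB against 10.3, 5.79 in control iHP against 27.7 and 15.8, and 4.38 in control iBEC against 4.99 and 3.98. *Postn* was thus further below its control than *Acta2* in the L1L2_Alb libraries of iHB and iHP.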
